A study of Mus musculus with 7 samples.

Results

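Mitochondrial ribosomal protein genes were taken as every row of the count table whose symbol starts with Mrps (small subunit) or Mrpl (large subunit) followed by a number, with at least 10 counts in at least 2 of the 7 libraries. Of the 23337 symbols of the table, 76 matched, 29 Mrps and 47 Mrpl genes, and all 76 passed both this minimum and the filter on low counts that left 14691 genes for testing. The libraries held poly(A) RNA of left ventricles dissected from mouse embryos at midgestation (E12.5), whose mothers had been injected with tamoxifen at E11.5. All 7 embryos carried the Gt(ROSA)26Sortm1(cre/ERT2)Tyj allele, which places a tamoxifen-activated Cre recombinase under a broadly active locus, so that recombination is not limited to heart muscle. The 5 control embryos were Tbx5+/+, without a floxed allele, and the 2 mutant embryos were Tbx5flox/flox. The labels do not give litters, so p-values measure only the spread between these libraries.

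Mitochondria make the few proteins encoded by their own genome on a separate ribosome. Its RNAs come from mitochondrial DNA, while its proteins are encoded in the nucleus, made in the cytosol and imported. The small subunit reads the messenger RNA, and the large subunit joins amino acids and releases the chain through an exit tunnel at the inner membrane, where the products enter the respiratory chain. Heart muscle depends heavily on respiration, and inherited defects of several of these proteins cause cardiomyopathy.

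Tbx5 did not mark the genotype. It was at 66.4, 80.5, 98.3, 64.2 and 74.9 counts scaled to a common library size (CPM) in control replicates 1 to 5 and 93.9 and 114 in the libraries labelled mutant, with a log2 fold change of 0.43 (SE 0.15, adjusted p = 0.181 by edgeR's quasi-likelihood test with Benjamini-Hochberg adjustment). A count over the whole gene does not check a deletion of part of it, so all directions below rest on the labels. Library totals ranged from 20268208 to 24440806 counts. Ventricular muscle markers were high in all libraries, with mean log2 CPM of 10.30 to 10.47 in the controls and, above every control, 10.52 and 10.56 in the libraries labelled mutant, and 0 of 9 genes called by edgeR (at an unadjusted p under 0.05, 5 were higher and 1 lower). Scores of atrial muscle (5.56 to 6.57 in controls, 5.09 and 5.00 in the mutant libraries), cushion mesenchyme (6.57 to 7.11, 5.54 and 5.45) and macrophages (4.26 to 4.71, 4.06 and 3.56) were lower in both mutant libraries. Of these lists 4 of 8, 6 of 9 and 3 of 8 genes were called lower, beside 0.899% of all genes, and no gene was at 0 throughout. The epicardial score was 5.31 to 5.89 in the controls and 5.46 and 4.99 in the mutants, with 1 of 7 genes called lower. Xist, expressed from the inactive X of female cells, was at 0.689 and 1.09 CPM in control replicates 1 and 3 and at 311 to 509 CPM in the other 5 libraries, both mutants included, so sex was not balanced between the groups. In bulk tissue, fewer cells of a type and less RNA per cell cannot be told apart. The part of these lists in the results below was not tested.

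The 76 genes lay on 17 chromosomes, with 10 on chromosome 11 and 8 on chromosome 17. A protein-coding start site on the opposite strand lay within 1000 bases of the start of 32 of the 76 (42.1%), against 15% of 13790 tested protein-coding genes. Mrpl46, part of the central protuberance of the large subunit, and Mrps11, a protein of the small subunit platform, form such a pair with each other on chromosome 7. Their annotated transcripts shared 173 exon bases. The libraries do not mark strand, so reads in shared exon bases cannot be assigned to one gene. No exon base was shared with another gene in 44 members, and over 10% were shared in 18. Mrpl53 (88.0%), Mrps34 (77.8%) and Mrps25 (69.8%) shared most of theirs, and their values are uncertain for that reason.

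RefSeq promoter windows, from 250 bases before to 50 after the start on GRCm38.p6, were listed for 67 members. They were searched on both strands for 7 motifs. A gene was counted if any of its listed windows held the motif, and some members have several windows. The NRF1 motif (GCGC, any 2 bases, GCGC) is bound by a regulator of nuclear genes for mitochondria. It was found for 13 of 67 members (19.4%) and for 14.1% of 10307 tested genes with a window. The ETS motif CCGGAAG, the core recognised by GABP, was in 24 (35.8%, against 17.9% of tested genes), and a YY1 motif (AA, any base, ATGG, CGGC) was in 7 (10.4%, against 2.46%). The E-box CACGTG was in 5 (7.46%, against 1182 of 10307 tested genes) and the letters TATAAA in 5 (7.46%, against 9%). The T-box letters AGGTGTGA and the estrogen-related receptor letters TCAAGGTCA were found for 0 of 67 members, against 1.03% and 0.31% of tested genes. A match is a description of letters and not a measured site. The stretches below end before any annotated exon and read 5′ to 3′ on the strand of the gene, with motif matches in capitals. They are shown for the member with the highest control count (Mrpl12, chr11:120484387-120484612, plus strand, an NRF1 match), a member with 2 ETS matches (Mrpl43, chr19:45006443-45006557, minus strand), the members with the lowest and the highest log2 fold change (Mrpl41, chr2:24975099-24975348, minus strand, and Mrps2, chr2:28467816-28468065, plus strand, no match in either), and the stretch shared by the head-to-head pair (chr7:78783090-78783118), printed once on each strand.
Mrpl12: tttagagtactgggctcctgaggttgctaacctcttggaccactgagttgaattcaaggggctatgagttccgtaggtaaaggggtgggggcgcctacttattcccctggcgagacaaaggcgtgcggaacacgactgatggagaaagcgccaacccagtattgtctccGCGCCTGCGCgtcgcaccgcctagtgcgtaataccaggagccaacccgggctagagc
Mrpl43: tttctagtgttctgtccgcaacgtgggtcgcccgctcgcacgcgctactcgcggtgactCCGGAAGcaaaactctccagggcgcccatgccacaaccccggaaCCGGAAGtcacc
Mrpl41: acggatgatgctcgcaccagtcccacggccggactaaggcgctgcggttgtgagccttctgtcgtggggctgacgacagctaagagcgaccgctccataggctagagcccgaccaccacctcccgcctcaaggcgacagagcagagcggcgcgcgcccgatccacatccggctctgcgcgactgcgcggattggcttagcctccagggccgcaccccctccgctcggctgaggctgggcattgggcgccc
Mrps2: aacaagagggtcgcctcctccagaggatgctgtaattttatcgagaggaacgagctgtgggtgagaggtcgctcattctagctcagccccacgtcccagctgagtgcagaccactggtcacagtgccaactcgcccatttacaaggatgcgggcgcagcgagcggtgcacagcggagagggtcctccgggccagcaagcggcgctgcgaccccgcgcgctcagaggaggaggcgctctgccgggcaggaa
Mrpl46: gcccctcgccggcccgcgttgcctcatgg
Mrps11: ccatgaggcaacgcgggccggcgaggggc

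Levels in the control ventricles spanned a wide range. On the scale of reads per kilobase of the representative transcript, scaled to the library total (RPKM), control means ran from 5.72 for Mrpl17 to 285 for Mrpl42, with a median of 39.6 and 65 of 76 members between 10 and 100. Small-subunit and large-subunit genes had median levels of 36.7 and 41.5 RPKM. The highest were Mrpl42 (285 ± 53.0 RPKM, SD, n = 5), a mitochondria-specific protein, Mrps21 (159 ± 17.1), the bacterial S21 counterpart, Mrpl33 (158 ± 33.2) and Mrpl12 (157 ± 9.94), whose dimers form the stalk that recruits translation factors. The order among Mrps21, Mrpl33 and Mrpl12 was within their spread. The same 4 genes were highest when counts were divided by coding length. The lowest were Mrpl17 at the tunnel exit (5.72 RPKM), Mrps26 (7.99), Mrpl1 (8.98) and Mrps25 (11.3), and these ranks depended on the length used. Their representative transcripts are long, at 7300, 4278, 3431 and 6073 bases, and by coding length only Mrpl1 stayed among the 4 lowest.

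Mrpl42 gave 206, 183, 219, 209 and 131 CPM in control replicates 1 to 5 and 213 and 151 CPM in mutant replicates 1 and 2. Mrpl12 gave 200.1, 199, 227, 213 and 196 CPM in the controls and 237 and 196 CPM in the mutants. Mrpl33 gave 85.8, 68.0, 89.5, 82.3 and 50.9 CPM in the controls and 71.2 and 54.0 CPM in the mutants. In Mrpl42 and Mrpl33 control replicate 5 was the lowest library of all, below both mutants, while in Mrpl12 it was close to control replicates 1 and 2. The 2 mutant libraries stood on opposite sides of the control mean in Mrpl42 and in Mrpl12.

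Differences between libraries of a group ran in 1 direction for many members. Control replicate 3 was the highest control for 52 of 76 members (68.4%) and control replicate 5 the lowest for 41 (53.9%, against 28.5% of all genes tested), but it was the highest for 13 (17.1%). Shares of all genes with control replicate 3 or 5 highest were not computed, so those counts cannot be read as a trait of the members. Control replicate 3 also gave the highest control score of nuclear respiratory chain genes (8.29) and cytosolic ribosomal protein genes (9.76). Mutant replicate 2 was below mutant replicate 1 for 73 of 76 members (96.1%, against 49.5% of all genes). The exceptions were Mrps25 (62.5 CPM in mutant replicate 1 and 74.1 CPM in mutant replicate 2), Mrpl9 (65.8 and 72.6) and Mrpl1 (31.6 and 32.6), named after their values were seen. Mutant replicate 2 was the lowest of all 7 libraries for 33 members (43.4%, against 22.6%). Replicates have no order, so this describes libraries and not conditions.

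**Figure D1:**
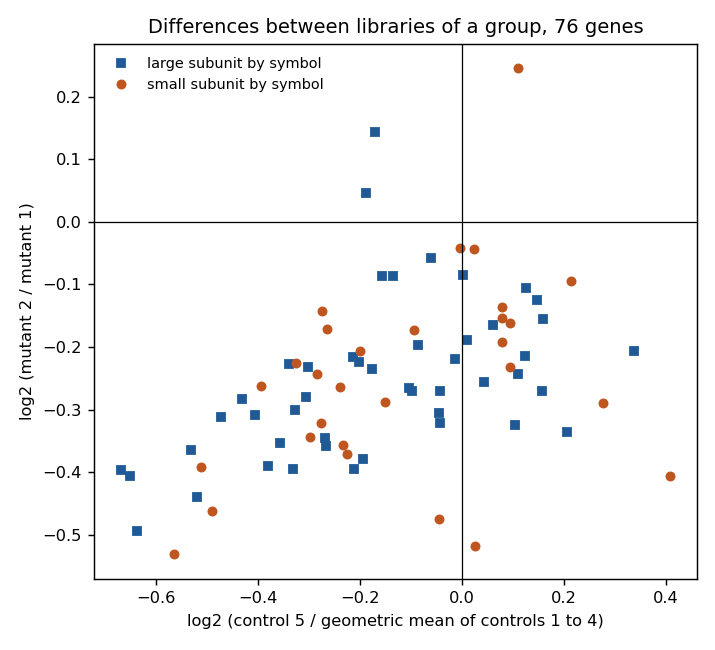
Each point is one of the 76 members, with its log2 ratio of control replicate 5 to the geometric mean of the other controls on the horizontal axis and its log2 ratio of mutant replicate 2 to mutant replicate 1 on the vertical axis, coloured by subunit. All but 3 points lie below 0 on the vertical axis, and points far to the left tend to lie low (Pearson r = 0.43, n = 76). Over 14648 tested genes the same correlation was 0.21.

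The per-library score (mean log2 CPM of the 76 members) of the controls, in order of replicate number, was 5.81, 5.74, 5.93, 5.84 and 5.68. The mutants scored 5.86 and 5.61. The small-subunit score was 5.63, 5.57, 5.74, 5.63 and 5.53 in the controls and 5.71 and 5.46 in the mutants. The large-subunit score was 5.91, 5.84, 6.04, 5.96 and 5.78 in the controls and 5.96 and 5.70 in the mutants. For each of the 3 scores, mutant replicate 1 lay inside the control range and mutant replicate 2 below every control, so the groups overlapped. The difference of group means was -0.06 for all members, -0.03 for the small and -0.08 for the large subunit, each smaller than the SD among controls (0.095, 0.083 and 0.103). Without mutant replicate 2 the 3 differences were 0.08, 0.10 and 0.06. Without mutant replicate 1 they were -0.19, -0.16 and -0.20, so their sign turned with the mutant library left out. The small-subunit difference also turned positive with both mutants kept. It was 0.0042 without control replicate 3 and 0.015 in the libraries with Xist above 10 CPM.

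**Figure D2:**
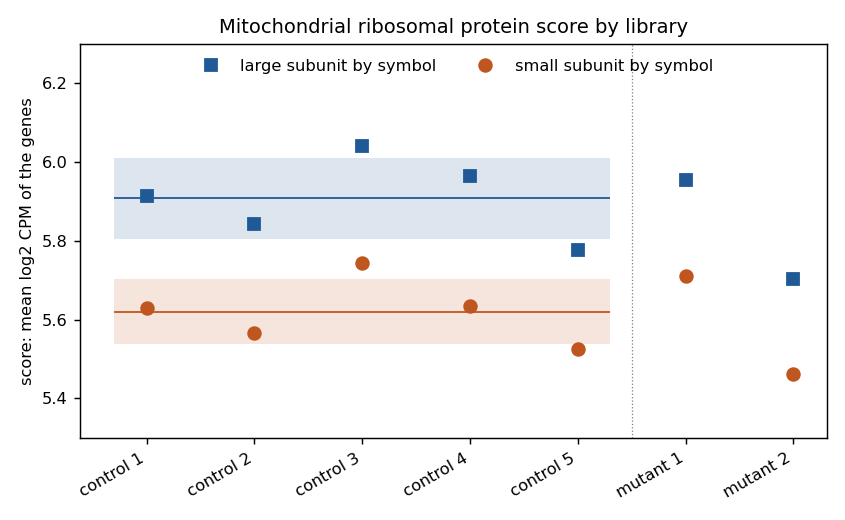
The score (mean log2 CPM of the genes, vertical axis) is plotted for each library, with squares for the large and circles for the small subunit by symbol. Lines and bands give the mean and SD of the 5 controls. For both subunits, mutant replicate 1 sits inside the control range and mutant replicate 2 below it.

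The gap between the subunit scores covered a narrower range than either score. The large-subunit score exceeded the small-subunit score by 0.283, 0.278, 0.298, 0.330 and 0.249 in the controls and by 0.244 and 0.241 in the mutants. Both mutant values were below the lowest control, that of control replicate 5, by less than the spread among the controls. Symbols do not fully follow the subunits. The proteins of Mrps30 and Mrps18a sit in the large subunit, and that of Mrps36 belongs to the oxoglutarate dehydrogenase complex. Grouped by protein, the gap was 0.247, 0.255, 0.260, 0.297 and 0.237 in the controls and 0.225 and 0.232 in the mutants, again with both mutant values lowest. No p is given for a score, since the members were chosen with earlier results known.

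No member was called between the genotypes. At an adjusted p of at most 0.05, edgeR's quasi-likelihood test called 200 of 14691 genes (1.36%), 132 lower (0.899%) and 68 higher (0.463%) in the libraries labelled mutant, and 0 of the 76 members. At an unadjusted p under 0.05 there were 5 members, all lower and all of the large subunit, or 6.58% against 17.6% of all genes (9.52% lower and 8.09% higher). DESeq2's Wald test, which called 5.34% of all genes, and limma-voom (0.81%) also called 0 members, each with 5 members at an unadjusted p under 0.05. That number rested on the libraries, and was 0 without mutant replicate 2 and 14, all lower, without mutant replicate 1. Leaving out control replicates 1 to 5 in turn gave 2, 4, 1, 2 and 9, all lower. Control replicate 5 and mutant replicate 2 had the lowest member score of their groups, so a fit without both is not a neutral check. In that fit 27 of 76 members had negative estimates, with a median of 0.046. At an adjusted p of at most 0.1, edgeR called 3.99% of all genes and 0 members. The lowest adjusted p of a member was 0.188, and over 19 other fits it was 0.0694.

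The fitted changes were small. Log2 fold changes of the members ran from -0.36 to 0.16 with a median of -0.04 (-0.02 for the small and -0.06 for the large subunit), beside a median of -0.01 over all genes tested. They were negative for 54 of 76 members (71.1%, against 51.4% of all genes), 18 of 29 small-subunit and 36 of 47 large-subunit genes. With Xist above or below 10 CPM as a covariate, 41 of 76 were negative, with medians of -0.02 for all members and 0.00071 for the small subunit. That fit had 0 members at an unadjusted p under 0.05, beside 1662 of 14691 genes. Among the 5 libraries with Xist above 10 CPM, 41 were negative and the score difference of all members was -0.01, with 0.02 for the small subunit. With upper-quartile scaling, which moved the median of all genes to -0.04, 62 were negative. The 95% intervals lay wholly within 1 log2 unit of 0 for all 76 members and within 0.5 for 66, with outermost bounds of -0.72 and 0.40. Without mutant replicate 2 the median was 0.09 with 19 members negative, and without mutant replicate 1 it was -0.18 with 66 negative.

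**Figure D3:**
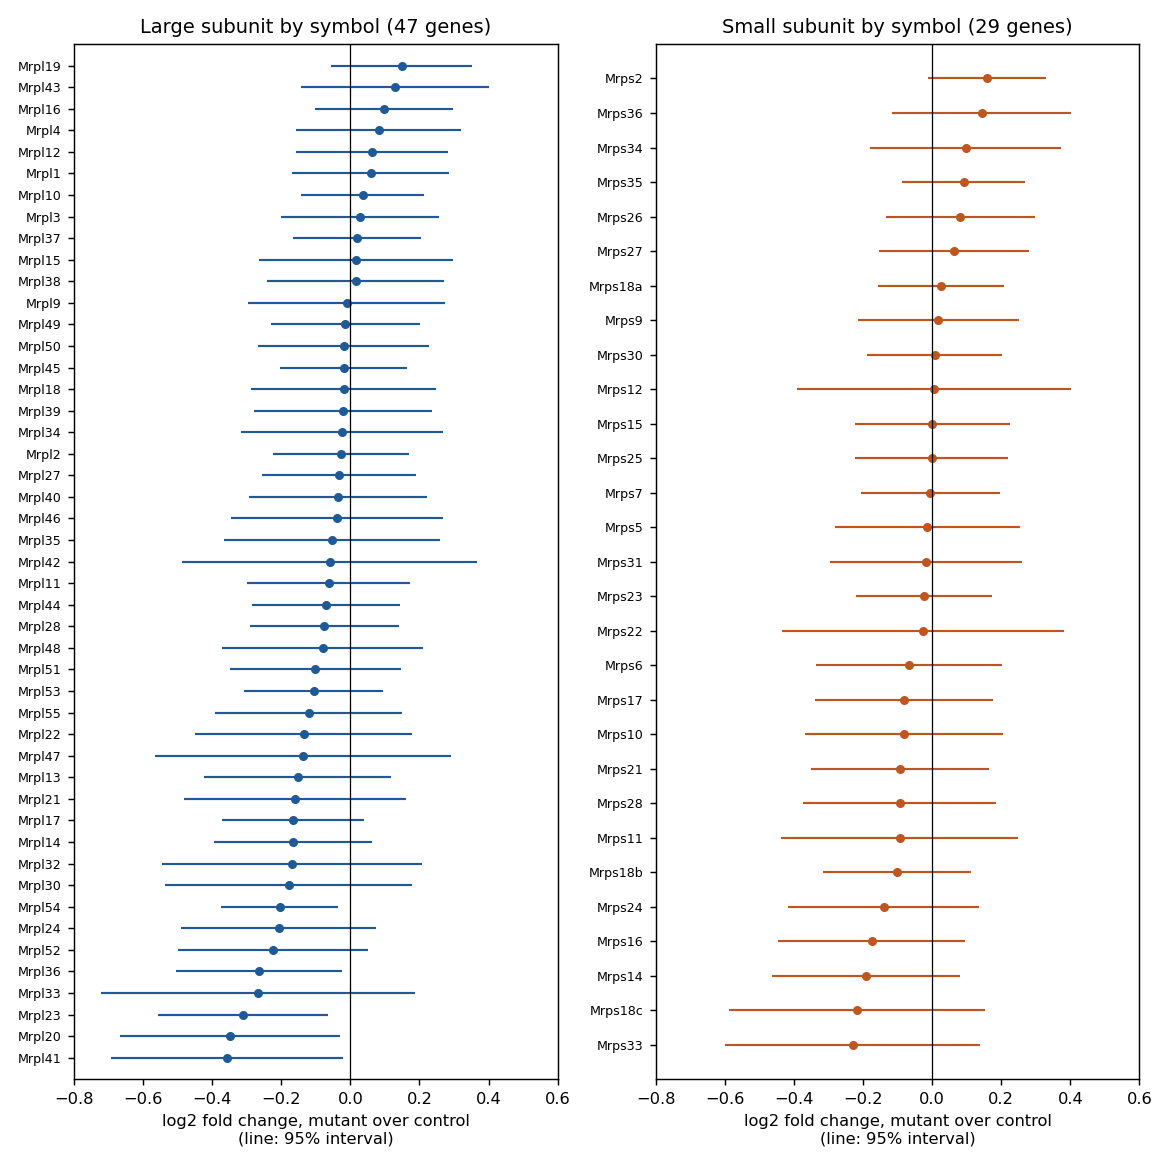
The log2 fold change of each of the 76 members (mutant minus control) is drawn with its 95% interval, ordered by size in 1 panel for each subunit by symbol. Of the intervals, 71 span 0 and 5, all of the large subunit, lie below it.

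Among single members, Mrpl23, a tunnel-exit protein on chromosome 7 (142532686 to 142540747, plus strand, mm10), had the lowest p. It gave 64.6, 52.1, 64.6, 63.1 and 59.0 CPM in the controls and 53.5 and 44.4 CPM in the mutants. The groups overlapped through control replicate 2. The log2 fold change was -0.31 (SE 0.11, adjusted p = 0.188 by edgeR), with an exact two-sided permutation p of 0.0952 over the 21 ways to pick 2 of 7 libraries, where the smallest possible value is 0.0476.

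Mrpl54, a mitochondria-specific protein on chromosome 10 (81264713 to 81266934, minus strand), varied little among controls. It gave 77.2, 76.6, 82.7, 77.9 and 78.7 CPM in the controls and 70.2 and 66.2 CPM in the mutants. Both mutant libraries were below every control, and the log2 fold change was -0.20 (SE 0.08, adjusted p = 0.203 by edgeR, exact permutation p = 0.0476). That exact p is the smallest possible, and the gene was picked by its low p in these same data, so it adds no support.

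Mrpl41, also mitochondria-specific and on chromosome 2 (24974117 to 24975098, minus strand), had the most negative estimate. It gave 55.7, 48.9, 57.9, 54.2 and 39.0 CPM in the controls and 44.3 and 35.7 CPM in the mutants. Control replicate 5 lay between the mutants. The log2 fold change was -0.36 (SE 0.15, adjusted p = 0.256 by edgeR, exact permutation p = 0.143). Without control replicate 5 it was -0.43, with an adjusted p of 0.0694 by edgeR.

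Mrpl20, a protein with a bacterial counterpart on chromosome 4 (155802878 to 155809975, plus strand), gave 66.8, 60.8, 74.8, 66.7 and 50.6 CPM in the controls and 55.6 and 44.9 CPM in the mutants. Control replicate 5 was again between the mutants, and the log2 fold change was -0.35 (SE 0.14, adjusted p = 0.241 by edgeR). Mrpl36, which also has a bacterial counterpart, gave 65.0, 54.3, 62.7, 60.3 and 52.6 CPM in the controls and 53.0 and 45.4 CPM in the mutants. Mutant replicate 1 just overlapped the controls, and the log2 fold change was -0.26 (SE 0.11, adjusted p = 0.241 by edgeR).

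Mrps2, a small-subunit protein on chromosome 2 (28468066 to 28471178, plus strand), was the member with the highest estimate. It gave 52.1, 54.1, 54.2, 49.3 and 53.2 CPM in the controls and 59.6 and 57.8 CPM in the mutants. Both mutant libraries were above every control, and the log2 fold change was 0.16 (SE 0.08, adjusted p = 0.321 by edgeR, exact permutation p = 0.0476). Here too the exact p is the smallest possible for a gene picked from these same data, and adds no support. Both mutants were outside the control range in 3 of 76 members, Mrps2 above and Mrpl54 and Mrpl17 below (1.32% above and 2.63% below). Of all genes, 20.2% were outside, 9.73% above and 10.4% below, and 19.6% in the members' range of control means. Mrpl17 gave 40.8, 39.7, 43.1, 39.6 and 45.5 CPM in the controls and 39.2 and 35.2 CPM in the mutants, so the upper mutant value lay just under the lowest control.

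**Figure D4:**
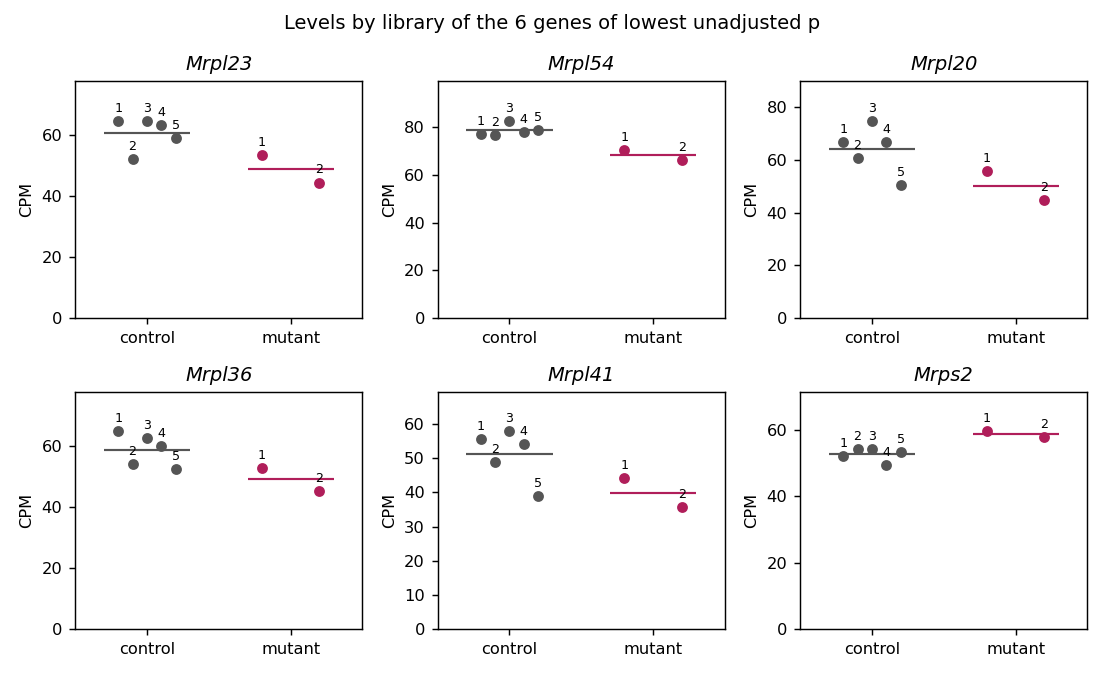
CPM (vertical axes, from 0) is plotted for the 6 members of lowest p, one point per library labelled with its replicate number, with a line at each group's mean. In Mrpl54 and Mrps2 no mutant point falls among the controls, while in Mrpl20, Mrpl23, Mrpl36 and Mrpl41 the groups overlap.

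The next highest estimates were those of Mrpl19, a protein with a bacterial counterpart (log2 fold change 0.15, with 36.0% of its exon bases shared with Gcfc2), Mrps36 of the oxoglutarate dehydrogenase complex (0.14) and Mrpl43 (0.13, with 33.4% of its exon bases shared with Twnk). Mrpl19 gave 56.5, 56.9, 63.8, 67.8 and 58.5 CPM in the controls and 68.6 and 65.9 CPM in the mutants, with control replicate 4 between the mutants and the other controls below both. Mrpl33 had a log2 fold change of -0.27 with the largest SE of the family, 0.20, and its controls spread from 50.9 to 89.5 CPM.

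By role, the 7 genes of the tunnel exit (Mrpl17, Mrpl22, Mrpl23, Mrpl24, Mrpl44, Mrpl45 and Mrpl47) all had negative estimates, with a median log2 fold change of -0.14, and 1 of them was at an unadjusted p under 0.05. All 7 were negative under each of the 3 other scalings, but 3 of 7 were without mutant replicate 2. The 3 stalk genes Mrpl10, Mrpl11 and Mrpl12 had a median of 0.04, the 5 central-protuberance genes -0.04 and the 7 genes of the small-subunit head -0.02. Genes with a bacterial counterpart (46) had a median of -0.08 with 34 negative, and mitochondria-specific genes (27) -0.02 with 19 negative. None of these groups held a called member, and no difference between groups was tested.

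The S18 proteins are paralogs of which a ribosome holds several in different places. Mrps18c, which takes the position of bacterial S18, gave 48.5, 43.6, 51.1, 42.9 and 32.6 CPM in the controls and 42.7 and 32.6 CPM in the mutants. Its log2 fold change was -0.22 (SE 0.17), that of Mrps18b -0.10 (SE 0.10) and that of Mrps18a 0.03 (SE 0.08). Mrps30, the other large-subunit protein with a small-subunit name, was at 0.01 (SE 0.09). Of the 4 members in which inherited variants have been linked to cardiomyopathy, log2 fold changes were 0.03 for Mrpl3, -0.07 for Mrpl44, -0.19 for Mrps14 and -0.03 for Mrps22. Mrps22 gave 57.9, 51.7, 62.1, 55.9 and 38.4 CPM in the controls and 61.8 and 42.7 CPM in the mutants, so the mutants straddled most controls.

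The coefficient of variation over the 5 controls had a median of 9.60% (3.05% to 21.1%), beside 7.79% in the 6494 tested genes of the same range of control means, 23.7 to 207 CPM. It was largest in Mrpl33 (21.1%), Mrpl47 (19.8%) and Mrps12 (18.7%), and smallest in Mrps35 (3.05%), Mrpl54 (3.11%) and Mrps18a (3.33%). The SE of a log2 fold change had a median of 0.12 (0.076 to 0.20). In the same range of levels, 81 of 6494 genes (1.25%) were called and 17.5% were at an unadjusted p under 0.05.

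Differences between libraries were set beside transcript features across members. The ratio of control replicate 5 to the other controls was related to the GC content of the transcript (r = 0.47, Spearman rho = 0.44, n = 76 genes sharing the same libraries), and its median log2 value was -0.30 in the third of members with 39.6% to 48.2% GC and -0.04 in the third with 52.7% to 60.6%. Over 13759 tested genes that correlation was 0.21. With log2 transcript length its r was 0.12 across members. The ratio of mutant replicate 2 to mutant replicate 1 was related to log2 transcript length (r = 0.34 across members, 0.29 over all genes) and had r = -0.04 with GC content across members. The log2 fold change between genotypes was related to log2 transcript length (r = 0.35, rho = 0.40), as over all genes (0.23 and 0.36). With GC content its r was 0.0017. Its median was -0.12 in the 25 members with transcripts of 418 to 995 bases, with 20 negative, and -0.02 in the 25 members of 1849 to 7300 bases, with 16 negative. The 5 members at an unadjusted p under 0.05 had transcripts of 604 bases (Mrpl54) to 923 bases (Mrpl36). The part of length in the genotype comparison was not tested.

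**Figure D5:**
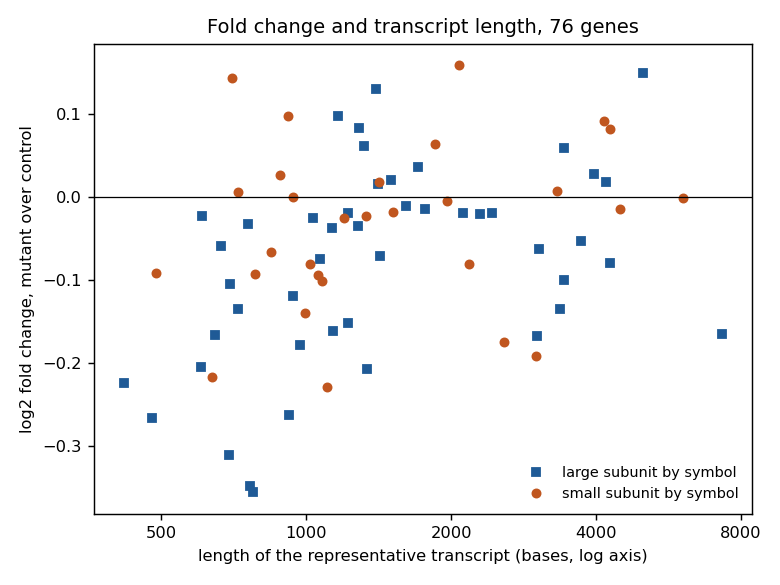
The log2 fold change of each member (mutant minus control) is plotted against the length of its representative transcript on a log axis, coloured by subunit. Short transcripts lie lower on average, with r = 0.35 over 76 genes.

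Genes that act with the mitochondrial ribosome were read beside the 1.36% of all genes called by edgeR. At that share, 0 or 1 call in a list this short is not a trait of the list. Of 6 ribosomal proteins under other symbols, 0 were called and 1 was at an unadjusted p under 0.05. That gene was Chchd1, a small-subunit protein, with 102, 93.1, 106, 99.5 and 67.9 CPM in the controls and 80.6 and 63.4 CPM in the mutants (log2 fold change -0.38, SE 0.16, adjusted p = 0.264 by edgeR). Control replicate 5 lay between its mutants, as in Mrpl41. The others were Aurkaip1 (-0.19), Ict1 (-0.10), Gadd45gip1 (0.06), Dap3 (0.06) and Ptcd3 (0.07). Mrp63, an older symbol of a large-subunit protein that the naming pattern misses, was at -0.01 (SE 0.14).

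Of 22 tested genes for ribosome assembly and rRNA modification, 0 were called, 8 estimates were positive and 14 negative, and the median was -0.06. Rbfa had the lowest p of these, at -0.21 (SE 0.11, adjusted p = 0.361 by edgeR). Of 14 translation factors, 0 were called, 10 were positive and the median was 0.06. Gfm1, the elongation factor that moves the ribosome along the message, gave 119, 121, 138, 138 and 132 CPM in the controls and 161 and 157 CPM in the mutants. Both mutants were above every control, with a log2 fold change of 0.29 (SE 0.09, adjusted p = 0.121 by edgeR). Of 19 mitochondrial aminoacyl-tRNA synthetases, which charge the tRNAs, 0 were called, 14 were positive and the median was 0.06, with Mars2 at 0.41 (SE 0.13, adjusted p = 0.146 by edgeR). Of 9 genes of mitochondrial transcription, 0 were called, 5 estimates were positive and 4 negative, and the median was 0.07 (-0.33 to 0.31). The highest was Polrmt, the mitochondrial RNA polymerase, at 0.31 (adjusted p = 0.169 by edgeR).

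Among 14 regulators of mitochondrial biogenesis, 12 estimates were positive, the median was 0.18 and 1 gene was called. Ppargc1b, a coactivator of nuclear genes for mitochondria, gave 11.0, 13.8, 12.2, 15.1 and 13.2 CPM in the controls and 20.1 and 20.04 CPM in the mutants. Both mutants were above every control, and it rose by 0.62 on the log2 scale (SE 0.13, adjusted p = 0.0464 by edgeR). This call was lost in 11 of 19 other fits, with an adjusted p up to 0.269, reached without mutant replicate 2. The authors' deposited table of 668 genes listed 1 gene of these regulators, not identified here, and 0 members. It comes from the same series, so it adds no independent support.

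Of 80 nuclear genes of the respiratory chain, which works with the products of this ribosome, 0 were called, 44 estimates were negative and the median was -0.02. At an unadjusted p under 0.05, 6 were higher and 1 lower (8.09% and 9.52% of all genes). Both mutants were above every control in 8 and below in 1 (9.73% and 10.4% of all genes). The gene of lowest p, Sdha, was at 0.34 (SE 0.10, adjusted p = 0.109 by edgeR). As for the members, the highest control score of this list was that of control replicate 3 (8.29) and the lowest that of control replicate 5 (7.91), with 8.27 and 7.94 in mutant replicates 1 and 2. Of the 77 ribosomal protein genes of the cytosol, 0 were called by edgeR, with the lowest p in Rps14 (-0.46, SE 0.13, adjusted p = 0.102). At the same time 61 of the 77 were at an unadjusted p under 0.05, all lower, beside 9.52% of all genes. All 77 estimates were negative and the median was -0.33. Both mutants were below every control in 21 of the 77 genes and above in 0 (10.4% and 9.73% of all genes). The score of these genes was 9.47 to 9.76 in the controls, lowest in control replicate 5. In the mutants it was 9.51 and 9.16, so mutant replicate 1 was inside the control range here too. Without mutant replicate 2 the median of these genes was -0.16 with 76 negative, while that of the mitochondrial members was 0.09. Whether the 2 families differ was not tested.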

How the data were processed

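Poly(A) RNA of 7 left ventricles was sequenced as 50-base single-end reads on kits that do not mark strand, per the labels' protocols. The authors deposited whole-number read counts per gene symbol, without normalization. The submitters' processing notes name the mm10 build, featureCounts, TopHat2 2.1.1, limma 3.30.13, edgeR 3.16.5 and R 3.3.2. The sources used here do not give the annotation or the strand setting. The authors also deposited a table of their own comparison, with log2 fold changes, p-values and FDR per gene, in which every FDR is at most 0.05. It does not name its test.

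Counts were filtered (filterByExpr, minimum count 10, minimum total 15), scaled by TMM and tested with edgeR 4.0.16 in R 4.3.3 (glmQLFit with robust estimation, glmQLFTest) on genotype in all 7 libraries. P-values were adjusted by Benjamini-Hochberg over 14691 genes, and a gene was called at 0.05 or less. CPM use the TMM-scaled totals, and log2 CPM a prior count of 2. Alternatives used DESeq2 1.42.0 and limma 3.58.1, other scalings, filters and samples. The test was run on simulated counts with changes larger than any member's estimate, so that check does not cover changes of the members' size. RPKM used representative transcripts of GENCODE M21 on the mm10 build, and 76 of 76 members matched. Named genes were those of lowest p, largest change, highest and lowest level and spread, the S18 paralogs and Mrps30, and the gene of lowest p in each related list. Members and lists were chosen with earlier results of these data known.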

Additional observations from a re-analysis of the deposited data

Results flagged for a closer look

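Among 94 values checked in the 5 controls, 3 members had 1 control library apart from the others, by a gap over the whole range above Dixon's critical value of 0.71. Chance flags about 1 in 20 such groups. Mrpl15, a large-subunit protein, was at 91.5 CPM in control replicate 4 and 68.2 to 74.0 CPM in the other controls (ratio 0.748). Mrpl49, of the large subunit, was at 77.7 CPM in control replicate 3 and 64.9 to 67.2 CPM in the others (ratio 0.823). Mrps31, of the small-subunit head, was at 42.4 CPM in control replicate 5 and 55.0 to 57.6 CPM in the others (ratio 0.824). Their log2 fold changes between genotypes were 0.02, -0.02 and -0.02.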

How the results depend on the processing

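No member was called in any of the 19 other fits. Of the members, 24 kept the sign of their log2 fold change in every fit, 16 negative and 8 positive, and 52 turned in at least 1. Over all genes, 200 calls became 785 with DESeq2, 119 with limma-voom, 60 with Xist (above or below 10 CPM) as a covariate, 66 in the libraries with Xist above 10 CPM and 52 without control replicate 5 and mutant replicate 2 together, and ranged from 12 (without mutant replicate 2) to 275 (without control replicate 5) when 1 library was left out. Calls in the related lists, 1 in all, became 9 with DESeq2 and 0 with upper-quartile factors, limma-voom, the Xist covariate, the Xist libraries and without control replicate 5 and mutant replicate 2 together, and were 0 to 1 with 1 library left out. Control replicate 5 and mutant replicate 2 had the lowest member score of their groups. Without those 2 libraries together the small-subunit median was 0.088 and the score differences were 0.044 for all members and 0.077 for the small subunit. With 1 library left out, the median ran from -0.18 to 0.087 for all members, -0.15 to 0.10 for the small and -0.19 to 0.061 for the large subunit, and the score difference from -0.19 to 0.075, -0.16 to 0.10 and -0.20 to 0.059. The ends were the fits without mutant replicate 1 and without mutant replicate 2, where the lone mutant is assumed to vary like the controls. The cause of these shifts was not tested.

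Replicate numbers were not shown to pair the libraries. Deviations of same-numbered libraries correlated at 0.0775 and 0.0117, and those of other pairs at -0.219 to 0.219. With 2 mutants, the deviations of each mirror those of the other, so these correlations cannot decide on pairing. A fit with the replicate number as a block, with 1 residual degree of freedom, called 811 genes, 0 members and 21 genes of the related lists.

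Estimates near 0 changed sign. Ict1 was 0.032 without control replicate 5 and mutant replicate 2, and Mrpl42 was 0.062 with the Xist covariate, 0.066 in the Xist libraries and 0.069 without those 2 libraries. Mrps12 was -0.021 with upper-quartile factors and -0.00022 with limma-voom, and Mrps18a -0.0013 with upper-quartile factors. Mrps25 was 0.0070 with DESeq2 size factors, 0.0034 with library totals, 0.0070 with DESeq2's test, 0.0077 without a filter, 0.0039 at 1 CPM in 2 libraries, 0.027 with the Xist covariate, 0.031 in the Xist libraries and 0.027 with the replicate block. Mrps30 was -0.020 with upper-quartile factors, -0.0040 with the Xist covariate and -8.2e-05 in the Xist libraries. With 1 library left out, estimates ran from -0.030 to 0.17 for Dap3, -0.25 to 0.037 for Ict1, -0.079 to 0.20 for Mrpl12, -0.33 to 0.18 for Mrpl42, -0.35 to 0.065 for Mrpl47, -0.21 to 0.21 for Mrps12, -0.043 to 0.10 for Mrps18a, -0.21 to 0.027 for Mrps21, -0.12 to 0.12 for Mrps25, -0.016 to 0.19 for Mrps26, -0.11 to 0.13 for Mrps30 and -0.074 to 0.21 for Ptcd3.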
